A study of Bos taurus with 15 samples.

Results

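PLAC8 (placenta-specific 8) encodes a small cysteine-rich protein that was first described in the placenta and is also made by myeloid and epithelial cells. Its signal was followed array by array in Japanese Black cows, in the endometrium of the caruncles, the sites at which the placenta later attaches. PLAC8 was 1 of the 6700 gene symbols of the array. Its probes were those that the scanner files name PLAC8 or describe as placenta-specific 8, control spots aside, and 2 of the 15208 probes met this. Labeled RNA of each cow had been hybridized to its own one-color Agilent array. The NP15 and NP18 groups were cows labeled as on days 15 and 18 of the estrous cycle (4 arrays each). The P15 and P18 groups were cows on the same days of pregnancy (3 and 4 arrays). The day of artificial insemination was counted as day 1. By the methods, array tissue came from cows after artificial insemination, sorted as pregnant or not by whether fetal trophoblast was seen in the uterus. The labels do not say whether the cows of the NP15 and NP18 groups were inseminated. The labels give no treatment, and all groups shared the breed, the tissue and the uterine horn on the side of the corpus luteum. The animals' ages are not given in the sources used here.

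In ruminants, the trophoblast of the elongating conceptus secretes interferon tau before implantation. Interferon tau binds the receptor made of IFNAR1 and IFNAR2 on endometrial cells, and a transcription factor complex that contains IRF9 then turns on interferon-stimulated genes. This signal keeps the corpus luteum from regressing. PLAC8 is known as a gene whose endometrial expression rises in cattle during this period.

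The probe sequences show which readings of PLAC8 are independent of each other, so they are given before the values. Probe A_73_115944, described on the array as similar to human PLAC8, had the higher mean log2 signal and is called the brighter probe. Probe ABR8424, named PLAC8 on the array, is called the dimmer probe. A further probe, ABR9209, is named on the array as a hypothetical protein and was outside the choice of PLAC8 probes. It was added after its sequence and values were seen, because it shares a run of 50 bases with the brighter probe. Capitals mark this run, which spans bases 11 to 60 of the brighter probe and bases 1 to 50 of ABR9209, each of 60 bases and 5′ to 3′ as in the files.
A_73_115944: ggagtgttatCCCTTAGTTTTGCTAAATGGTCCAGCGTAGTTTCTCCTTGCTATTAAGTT
ABR9209: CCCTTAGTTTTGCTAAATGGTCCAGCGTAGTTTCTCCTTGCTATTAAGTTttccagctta
ABR8424: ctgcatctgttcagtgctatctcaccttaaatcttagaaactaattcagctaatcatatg
The brighter probe and ABR9209 thus read nearly the same stretch, 10 bases apart, and are no independent readings of PLAC8. The dimmer probe shared at most 8 bases in a row with the brighter probe on either strand, and at most 13 with any probe that was not a PLAC8 probe. G and C made up 40% of the brighter probe and 35% of the dimmer probe. The array's annotation placed neither PLAC8 probe on the genome. For the assembly ARS-UCD2.0, RefSeq lists PLAC8A and PLAC8B next to each other, both with the older symbol PLAC8, and which of them each probe reads was not settled here.

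The brighter probe separated the P18 arrays from all others. Its signal is given as the processed intensity divided by the median intensity of the same array, so a signal of 1 equals the array median. In replicates 1 to 4, it was 10.5, 5.33, 4.86 and 3.64 array medians in the NP15 group and 7.26, 8.45, 10.3 and 9.68 in the NP18 group. In replicates 1 to 3 of the P15 group it was 7.50, 17.2 and 8.95 array medians. In replicates 1 to 4 of the P18 group it was 104, 192, 276 and 107 array medians. Each P18 array was above each of the 11 other arrays. The P15 group overlapped both non-pregnant groups, and replicate 2 of the P15 group was the highest array outside the P18 group.

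The same values on the scale of array medians were 6.09 ± 3.04 (SD, n = 4) in the NP15 group, 8.93 ± 1.35 (SD, n = 4) in the NP18 group, 11.2 ± 5.22 (SD, n = 3) in the P15 group and 169.8 ± 81.9 (SD, n = 4) in the P18 group. In this order, the ranges of the NP15, NP18 and P15 groups overlapped, and only the step from P15 to P18 exceeded the spread. The NP18 group was the tightest, with its highest array 1.42 times its lowest, against 2.89 times in the NP15 group and 2.66 times in the P18 group. Before scaling, the intensity of the brighter probe was from 5838 to 8638 in the NP18 arrays and from 48915 to 112500 in the P18 arrays, whereas the median intensity of an array was from 789 to 838 and from 407 to 564, respectively. The P18 arrays were therefore higher in the unscaled intensity as well.

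The dimmer probe gave the same separation at its own signal range. It was 0.872, 0.382, 0.633 and 2.04 array medians in replicates 1 to 4 of the NP15 group and 1.04, 0.763 and 0.875 in replicates 1 to 3 of the P15 group. It was 0.910, 1.30, 1.12 and 0.895 array medians in replicates 1 to 4 of the NP18 group and 5.97, 14.0, 8.69 and 10.8 in those of the P18 group. All P18 arrays were above all others again, and the highest array outside the P18 group was replicate 4 of the NP15 group. The group values were 0.982 ± 0.734 (SD, n = 4) in the NP15 group, 0.892 ± 0.139 (SD, n = 3) in the P15 group, 1.06 ± 0.191 (SD, n = 4) in the NP18 group and 9.86 ± 3.39 (SD, n = 4) in the P18 group. The NP15, P15 and NP18 ranges overlapped.

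Both PLAC8 probes and ABR9209 were well above background in all 15 arrays, and none was saturated. The image software takes very bright spots from a second scan at lower gain, and 510 to 1823 probes per array were read in this way. The brighter probe and ABR9209 were read from the low-gain scan in all 4 P18 arrays and in no other array. The dimmer probe was read from the same scan in every array, so its difference between the P18 and NP18 groups involved no change of scan.

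**Figure D1:**
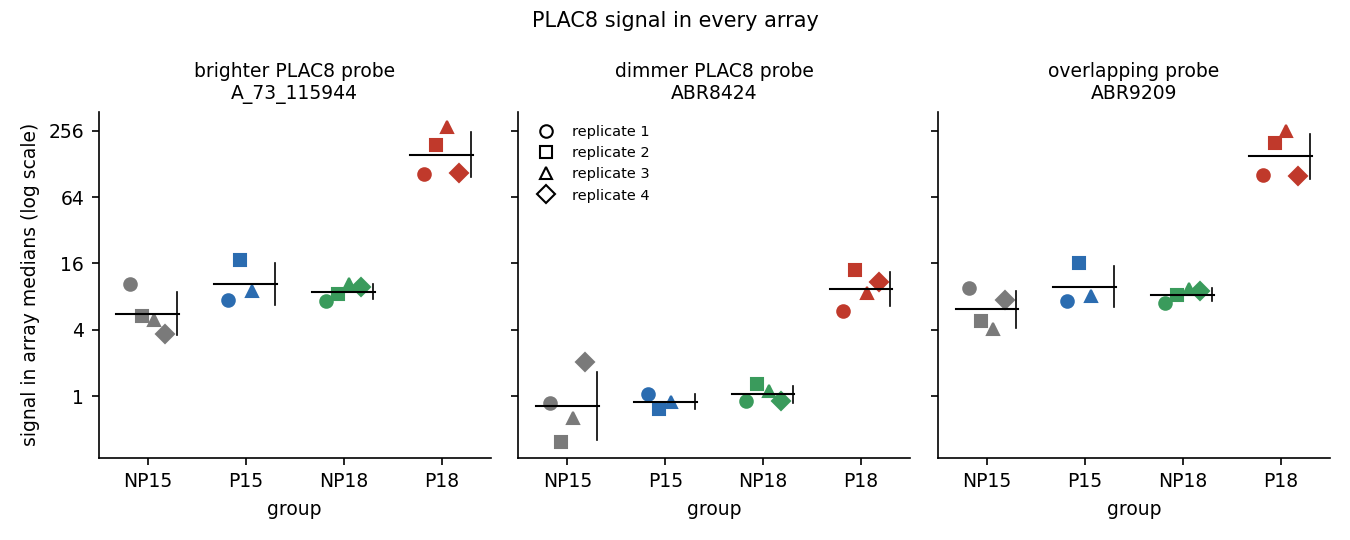
Signal of the brighter PLAC8 probe, the dimmer PLAC8 probe and the overlapping probe ABR9209 in each array, in array medians on a log scale, by group, with a marker for each replicate number. Horizontal bars are means of log2 values and vertical bars are 1 SD of log2 values to either side, and the 4 P18 arrays lie above the other 11 in each panel.

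Whether pregnancy changed PLAC8 was asked on each day. The test was limma over all 15 arrays and 13161 probes, and calls needed both a fold change above 2 and a p under 0.05 after Benjamini-Hochberg adjustment. On day 15, the brighter probe was 0.90 higher on the log2 scale in the P15 group than in the NP15 group (SE 0.41, 95% interval of 0.02 to 1.78, limma adjusted p = 0.322) and was not called. The exact two-sided permutation test gave p = 0.143 for 3 against 4 arrays, where 0.0286 is the smallest p possible. The dimmer probe differed by 0.13 on the log2 scale (SE 0.44, 95% interval of -0.81 to 1.07, limma adjusted p = 0.924). Neither result shows equal levels, since the intervals reach a difference of 1.78 and 1.07, respectively. Without replicate 2 of the P15 group, the difference of the brighter probe was 0.55 on the log2 scale. Among all probes tested, 0.798% were called on day 15. Before adjustment, the limma p of the brighter probe was 0.0446, at place 1826 of the 13161 probes.

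On day 18, PLAC8 was higher in pregnant cows with both probes. The brighter probe was 4.14 higher on the log2 scale in the P18 group than in the NP18 group (SE 0.38, 95% interval of 3.33 to 4.95, limma adjusted p = 2.87e-05), which is 17.6-fold. The dimmer probe was 3.17 higher (SE 0.41, 95% interval of 2.31 to 4.04, limma adjusted p = 0.000301), which is 9.02-fold. Both were called, and 5.77% of all probes tested were called on day 18, with 3.65% called higher. All 4 P18 arrays were above all 4 NP18 arrays with each probe (exact two-sided permutation p = 0.0286, the smallest that 4 against 4 arrays allow). In the order of rises among the 13161 probes, the brighter probe was at place 40 and the dimmer probe at place 75. The median difference of all probes tested was 0.07 on the log2 scale. The arrays of the NP18 group were scanned on 1 day and those of the P18 group on another, so the effect of pregnancy and that of the day of scanning cannot be told apart on day 18. Each scan day held 1 group, so the same holds for the other comparisons between groups. In bulk tissue, a larger share of PLAC8-expressing cells and more PLAC8 mRNA per cell cannot be told apart either.

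The rise on day 18 was larger than the difference on day 15. The interaction, which is the day 18 difference minus the day 15 difference, was 3.24 on the log2 scale for the brighter probe (SE 0.56, limma adjusted p = 0.0127) and 3.05 for the dimmer probe (SE 0.60, limma adjusted p = 0.0186). Both were called, against 2.72% of all probes tested. When the day of scanning entered limma as a random block, the interaction was 3.18 for the brighter and 3.12 for the dimmer probe, each with an adjusted p of 0.516, and both calls were lost.

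Within pregnancy, PLAC8 rose from day 15 to day 18. The brighter probe was 3.89 higher on the log2 scale in the P18 group than in the P15 group (SE 0.41, limma adjusted p = 0.000321), and the dimmer probe was 3.41 higher (SE 0.44, limma adjusted p = 0.000655). All 4 P18 arrays were above all 3 P15 arrays with each probe (exact two-sided permutation p = 0.0286). Of all probes tested, 11.9% were called in this comparison. Under the same random block, limma gave adjusted p of 0.0762 for the brighter and 0.0878 for the dimmer probe at the same differences, and both calls were lost. In non-pregnant cows, the difference between day 18 and day 15 was 0.66 for the brighter probe (SE 0.38, 95% interval of -0.16 to 1.47, limma adjusted p = 0.271) and 0.36 for the dimmer probe (SE 0.41, 95% interval of -0.50 to 1.23, limma adjusted p = 0.588). Neither was called, and 7.16% of all probes tested were.

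**Figure D2:**
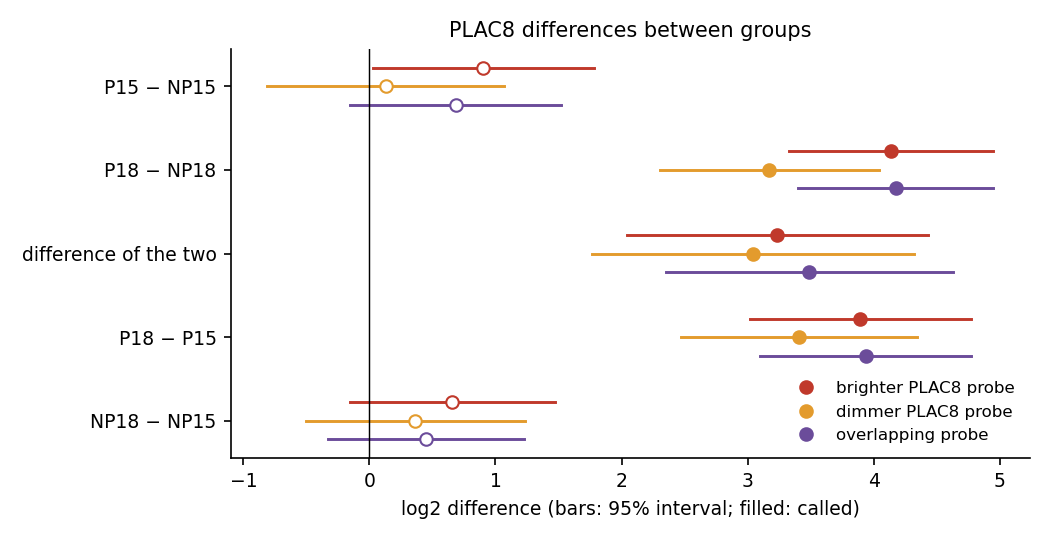
Differences on the log2 scale between groups for the brighter PLAC8 probe, the dimmer PLAC8 probe and the overlapping probe ABR9209, with 95% intervals from limma and filled points for calls. For all 3 probes the points are filled for P18 against NP18, for P18 against P15 and for the difference between the day 18 and day 15 differences, and open for the other contrasts.

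The overlapping probe ABR9209 followed the brighter probe closely. It was 164 ± 75.4 array medians (SD, n = 4) in the P18 group and 8.39 ± 1.08 (SD, n = 4) in the NP18 group, and its difference was 4.17 on the log2 scale (SE 0.36, limma adjusted p = 2.58e-05). Its difference on day 15 was 0.68 (SE 0.39, limma adjusted p = 0.433). The ratio of the brighter probe to ABR9209 within an array was from 0.965 to 1.19 in 14 arrays. It was 0.490 in replicate 4 of the NP15 group, where ABR9209 was at 7.43 array medians and the brighter probe at 3.64. In that array the dimmer probe had its highest value outside the P18 group, so the 3 probes ranked this array differently. Without it, the day 15 difference of the brighter probe was 0.69 on the log2 scale and was not called either.

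The brighter and dimmer probes are different sequences, so the ratio between them was read only as a change across arrays. It was 1.78 in replicate 4 of the NP15 group and from 6.51 to 31.8 in the other 14 arrays. On the log2 scale, the ratio was 0.97 higher in the P18 group than in the NP18 group, with 3 of the 4 P18 arrays above all NP18 arrays (exact two-sided permutation p = 0.0571, n = 4 and 4). On day 15 it was 0.77 higher in the P15 group (exact two-sided permutation p = 0.543, n = 3 and 4). Within the P18 group, the brighter probe and ABR9209 were highest in replicate 3, and the dimmer probe was highest in replicate 2. Over the 15 arrays, the Pearson r of the log2 signals of the brighter and dimmer probes was 0.90 (Spearman rho of 0.55), and without the P18 arrays it was -0.11. The agreement of the PLAC8 probes thus rested on the separation of the P18 group, whereas r between the brighter probe and ABR9209 was 0.99 over all arrays and 0.82 without the P18 arrays.

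**Figure D3:**
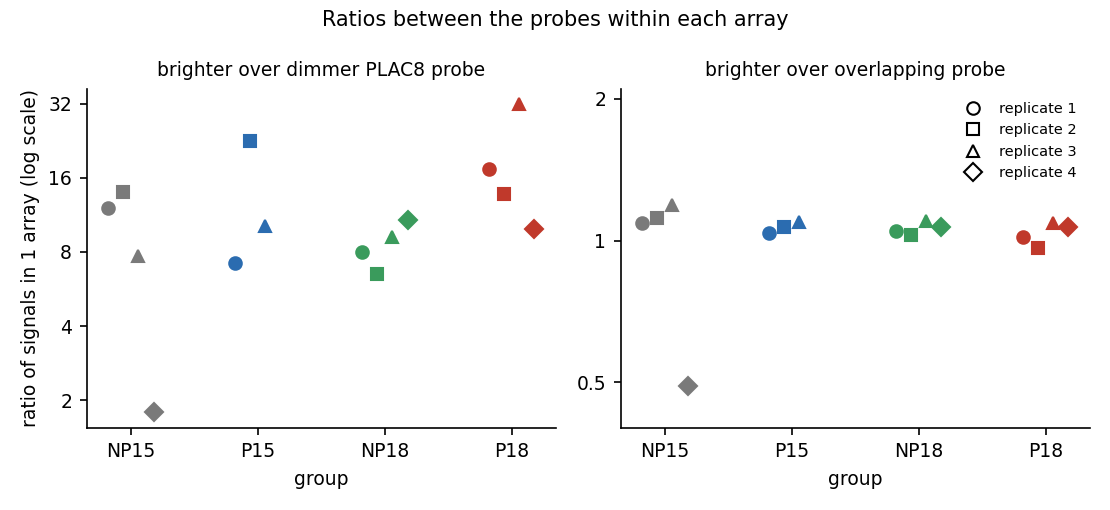
Ratio of the brighter to the dimmer PLAC8 probe (left) and of the brighter probe to the overlapping probe ABR9209 (right) within each array, on log scales, by group and replicate number. Replicate 4 of the NP15 group lies apart in both panels, at 1.78 and 0.490.

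The genes whose pattern was most like that of PLAC8 were found by Pearson r with the log2 signal of the brighter probe over the 15 arrays, among 6040 gene symbols. All such r are across arrays that share a high P18 group, so they are a description of likeness and r is also given without the 4 P18 arrays. The highest r was that of CDKN2AIP, whose product binds the tumor suppressor ARF, at 0.98 (0.71 without the P18 arrays). Next were TIMD4, a phosphatidylserine receptor of macrophages, at 0.97 (0.73 without the P18 arrays), and GTF2B, a general factor of RNA polymerase II, at 0.97 (0.63). The other 7 were GBP4, a guanylate-binding protein, TRIM6, a ubiquitin ligase, the ubiquitin-like modifier ISG15, IFIT3, the RNA sensor RIGI, the ADP-ribosyltransferase PARP12 and the antiviral GTPase MX1, at 0.96 each. Without the P18 arrays, r of these 7 was from 0.48 for TRIM6 to 0.67 for PARP12. In all, 58 symbols had r over 0.9 and the median r was 0.12.

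The genes most like PLAC8 differed in how they varied within groups. For deviations from the group means, r with the brighter probe was 0.87 for TIMD4, 0.68 for CDKN2AIP, 0.67 for GTF2B and 0.58 for ISG15, and it was 0.39 for GBP4. TIMD4 was at 18.0, 29.9, 58.1 and 21.9 array medians in replicates 1 to 4 of the P18 group, with the highest value in the array where the brighter PLAC8 probe was highest. All 10 genes were called higher on day 18, beside 3.65% of all probes. Their choice by r with a probe that was high in the P18 group favored such calls, so the count is no separate result. CDKN2AIP had the smallest rise, at 1.81 on the log2 scale (SE 0.22, limma adjusted p = 0.000222), and ISG15 the largest, at 5.74 (SE 0.51, limma adjusted p = 2.66e-05). The rise of PLAC8 with the brighter probe, 4.14, lay below those of ISG15, IFIT3 and RIGI and above those of the other 7.

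The lowest r were those of GNAI2, an inhibitory G protein subunit (-0.95), OAZ2, an antizyme of ornithine decarboxylase (-0.92), NDUFA4L2, a mitochondrial protein induced by low oxygen (-0.91), CTNNB1, which encodes beta-catenin (-0.91), and the zinc finger gene ZNF358 (-0.89). On day 18, GNAI2 fell by 1.23 on the log2 scale (SE 0.20, limma adjusted p = 0.00271) and NDUFA4L2 fell by 2.22 (SE 0.33, limma adjusted p = 0.00119). OAZ2 and ZNF358 were called lower as well. The choice by lowest r favored such falls, and 2.11% of all probes were called lower. CTNNB1 differed by -0.64 (limma adjusted p = 0.0443), which is under the 2-fold limit.

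Interferon-stimulated genes showed the pattern of PLAC8 as a group on day 18. Of 82 listed symbols, 39 had a probe and 38 were tested. On day 15, limma called none of the 38, beside 0.798% of all probes. The median difference of the 38 was 0.38 on the log2 scale, against -0.05 for all probes. An unadjusted p below 0.05 was seen for 13 of them. Such p were common that day, since the brighter PLAC8 probe, with an unadjusted limma p of 0.0446, held place 1826 among 13161 probes. On day 18, 30 of the 38 were called higher and 1 lower, beside 3.65% and 2.11% of all probes. Their median difference was 3.08, against 0.07 for all probes. The one called lower was SAMHD1, a dNTP-degrading enzyme, which fell by 1.07 (SE 0.23, limma adjusted p = 0.0149). OAS2, a sensor of double-stranded RNA, had the highest difference at 6.19 (SE 0.60, limma adjusted p = 3.17e-05). The brighter PLAC8 probe was above 30 of the 38 in its difference on day 18, and r with it was over 0.8 for 31 of the 38.

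Single members of this group give the scale. ISG15 was at 12.2 ± 4.30 array medians (SD, n = 4) in the NP18 group and at 641 ± 174 (SD, n = 4) in the P18 group. MX1 was at 32.9 ± 7.86 and 409 ± 68.1 (SD, n = 4 each), with a difference of 3.65 on the log2 scale (limma adjusted p = 4.71e-05). The antiviral genes MX2 and RSAD2 rose by 6.09 and 5.46 on the log2 scale, with MX2 well above background in 2 of the 4 NP18 arrays. The chemokine CXCL10, which draws T and natural killer cells, was at 79.7, 74.4, 184 and 42.2 array medians in replicates 1 to 4 of the P18 group and from 6.32 to 7.45 in the NP18 group. It rose by 3.62 on the log2 scale (SE 0.49, limma adjusted p = 0.000468).

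Replicate 2 of the P15 group had the highest brighter PLAC8 signal before the P18 stage, and the interferon-stimulated genes were high in the same array. ISG15 was at 103 array medians there and at 12.6 and 25.05 in replicates 1 and 3 of that group. MX1 was at 135 array medians there, against 27.9 and 46.02. Of the 38 interferon-stimulated genes, 31 (81.6%) had their highest P15 value in this array, against 34.9% of 13144 probes with a value in every P15 array. The dimmer PLAC8 probe had its lowest P15 value, 0.763 array medians, in the same array. In the P18 group, 27 of the 38 genes (71.1%) were highest in replicate 3, the array where the brighter probe was highest, against 40.3% of 13155 probes. The dimmer probe was not highest in that array.

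**Figure D4:**
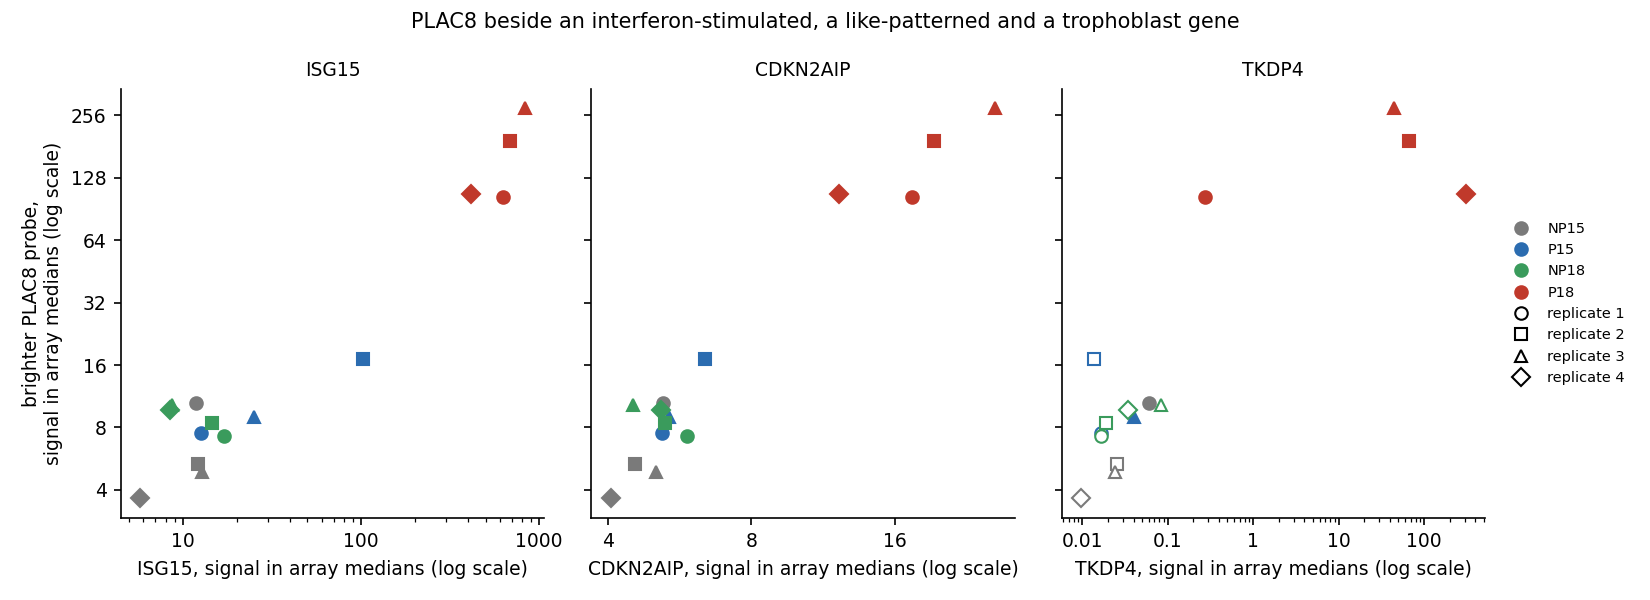
Signal of the brighter PLAC8 probe against ISG15, CDKN2AIP and TKDP4 in each array, all in array medians on log scales. Colors mark groups, marker shapes mark replicate numbers and open markers are arrays in which the gene on the x axis was not well above background. Replicate 2 of the P15 group is the blue square at an ISG15 signal of 103, and replicate 1 of the P18 group has a TKDP4 signal of 0.271 at a PLAC8 signal of 104.

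Of the 21 listed genes of interferon signaling, 12 were tested. On day 15 limma called none, beside 0.798% of all probes, and 2 had an unadjusted p below 0.05. The brighter PLAC8 probe, with an unadjusted limma p of 0.0446, held place 1826 among 13161 probes, so such p were common that day. On day 18, 3 were called higher and 1 lower, beside 3.65% and 2.11% of all probes. IRF9, the DNA-binding interferon regulatory factor of the pathway, rose by 3.17 on the log2 scale (SE 0.29, limma adjusted p = 2.71e-05). USP18, a protease that removes ISG15 and damps the receptor, rose by 4.99 (SE 0.59, limma adjusted p = 0.000182). The receptor subunit IFNAR1 was called lower (limma adjusted p = 0.0179), but it was not well above background in any P18 array and in 2 of the 4 NP18 arrays. With the P18 arrays raised to the lowest signal well above background, it was 1.04-fold lower. This is no strict bound, because the dim NP18 arrays entered as measured. The other receptor subunit IFNAR2 differed by -0.25 (limma adjusted p = 0.536) and was well above background in every array. The remaining 7, which were SOCS3, PIAS1, IFNGR1, IFNGR2, IRF1, IRF2 and IRF3, were not called. IRF3 had the largest of their differences, 0.91 on the log2 scale (limma adjusted p = 0.0457), which is 1.88-fold.

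Few relatives and partners of PLAC8 were measured. Of 17 listed symbols, 6 were tested, and none was PLAC8L1 or CNFN, the other members of the family. On day 18, AKT1, a kinase whose activity PLAC8 affects in other cells, fell by 2.58 on the log2 scale (SE 0.62, limma adjusted p = 0.0232), from 0.901 ± 0.346 array medians (SD, n = 4) in the NP18 group to 0.210 ± 0.183 (SD, n = 4) in the P18 group, where 2 of 4 arrays were well above background. CEBPB, a transcription factor that PLAC8 acts on in fat cells, differed by -0.34 (limma adjusted p = 0.559). The autophagy and lysosome genes ATG5, MAP1LC3B and LAMP2 differed by -0.43, 0.72 and 0.13 on the log2 scale, and none was called. On day 15 none of the 6 was called by limma, beside 0.798% of all probes. An unadjusted p below 0.05 was seen for 1 of them, and the unadjusted limma p of the brighter PLAC8 probe, 0.0446, held place 1826 among 13161 probes.

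None of the measured RefSeq neighbors of PLAC8A and PLAC8B was called on day 18, beside 5.77% of all probes. Among the 3 genes on either side, COPS4 and HPSE had a probe. COPS4, a subunit of the COP9 signalosome, was from 23.0 to 49.2 array medians in the NP18 group and from 24.6 to 37.8 in the P18 group, with a difference of -0.15 on the log2 scale (limma adjusted p = 0.755). HPSE, which encodes heparanase, differed by -0.85 (limma adjusted p = 0.395) and was well above background in 1 of the 4 P18 arrays.

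Markers of other cell types moved on day 18 beside PLAC8. Of 40 listed trophoblast genes, 27 had a probe and 16 were tested, and on day 18 limma called 7 higher and 1 lower. Of all probes tested, 3.65% were called higher and 2.11% lower. Most of the 7, TKDP4 and IFN-tau-c1 among them, passed the filter of 3 arrays well above background only through the P18 group. The count of 7 was thus partly set by the filter and cannot be read against the share of all probes. The summed signal of the 16 was from 7.93 to 95.5 array medians in the NP18 group and from 38.9 to 665 in the P18 group. PTGS2, a prostaglandin synthase that the endometrium also makes, gave 6.55 to 93.3 array medians of it in the NP18 group and 23.6 to 48.5 in the P18 group, and it was not called (0.42 on the log2 scale, limma adjusted p = 0.759). Without PTGS2, the sum of the other 15 was from 1.38 to 2.86 array medians in the NP18 group and was 1.38, 148, 90.1 and 632 in replicates 1 to 4 of the P18 group. TKDP4, a trophoblast Kunitz domain protein, was not well above background in any NP18 array and was at 0.271, 66.6, 45.0 and 307 array medians in replicates 1 to 4 of the P18 group, which is at least 271-fold higher (limma adjusted p = 0.00202). The trophoblast transcription factor ELF5 was the one called lower, and it fell by 2.34. No IFNT2 probe was found under this symbol, but an interferon tau probe named IFN-tau-c1 was tested. It was not well above background in any array outside the P18 group nor in replicate 1 of the P18 group. In replicates 2 to 4 of the P18 group it was at 19.5, 16.8 and 117 array medians, and it was called higher than in the NP18 group (limma adjusted p = 0.00338). With the NP18 arrays raised to the lowest signal well above background it was 94.99-fold higher, which is no strict bound because P18 replicate 1 entered as measured.

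The brighter PLAC8 probe had nearly the same signal in the P18 arrays with the lowest and the highest trophoblast sum. The dimmer probe was higher in the array with the highest sum. In replicate 1 of the P18 group, 2 of the 15 markers other than PTGS2 were well above background, and the brighter probe was at 104 array medians. In replicate 4 of the P18 group, 11 of the 15 were well above background, and the brighter probe was at 107 array medians. The dimmer probe was at 5.97 array medians in replicate 1, its lowest P18 value, and at 10.8 in replicate 4. Without replicate 4 of the P18 group the day 18 difference of the brighter probe was 4.32 on the log2 scale, and without replicate 1 it was 4.33. In the P15 group the sum without PTGS2 was from 0.782 to 1.39 array medians, and TKDP4 was well above background in 1 of the 3 arrays. Over the 15 arrays, r of TKDP4 with the brighter probe was 0.89, and without the P18 arrays it was 0.37. The part of trophoblast cells in the PLAC8 result was not tested.

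Of 29 leukocyte markers tested, 2 were called higher on day 18 and none lower, beside 3.65% and 2.11% of all probes. FCGR3A, an immunoglobulin G receptor, rose by 2.60 on the log2 scale (SE 0.34, limma adjusted p = 0.000347) and the integrin ITGB2 by 1.06 (SE 0.28, limma adjusted p = 0.0387). The summed signal of the 29 was from 52.5 to 72.9 array medians in the NP18 group and from 75.6 to 238 in the P18 group. Most of this gap lay in GZMB, a protease of cytotoxic lymphocytes that was at 125 array medians in replicate 3 of the P18 group, and S100A12, a calcium-binding protein of neutrophils, neither of which was called (limma adjusted p = 0.400 and 0.0633). Without both genes the sum was from 35.9 to 43.8 array medians in the NP18 group and from 43.2 to 66.7 in the P18 group. The groups overlapped only through replicate 1 of the P18 group, which was at 43.2. The day 18 difference was above 0 for 24 of the 29 markers. Their median difference was 0.66 on the log2 scale, against 0.07 for all probes. PTPRC, which encodes the pan-leukocyte antigen CD45, was well above background in 1 NP18 array and in no P18 array. TCF4 had the lowest difference of the list, -0.73 (limma adjusted p = 0.0882). The part of these cells in the PLAC8 result was not tested.

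The tissue markers were present in all groups, except that 1 endothelial gene was not well above background in any P18 array. All 12 epithelial and all 9 stromal genes tested were well above background in at least 1 array of each group. None was called on day 18, beside 5.77% of all probes, a share at which lists this short may hold no call. On day 15 no epithelial difference was above 0, with a median of -0.59 against -0.05 for all probes. None of these was called, beside 0.798% of all probes. Their extremes were KRT7 at -2.26 (limma adjusted p = 0.145) and OCLN at 1.14 (limma adjusted p = 0.126) in the epithelium, and COL1A2 at -1.38 (limma adjusted p = 0.102) and PDGFRA at 0.44 (limma adjusted p = 0.556) in the stroma. Of 11 endothelial genes 2 were called lower, beside 2.11% of all probes. TIE1, an endothelial receptor, fell by 1.87 (limma adjusted p = 0.0145) and was well above background in 1 of the 4 P18 arrays, while ESAM differed by 0.13 (limma adjusted p = 0.868). Of 6 smooth muscle genes 3 were called lower, beside the same 2.11%. ACTA2, which encodes smooth muscle actin, fell by 3.90 (SE 0.62, limma adjusted p = 0.0019), and SMTN differed by 0.36 (limma adjusted p = 0.558). Summed smooth muscle signals were from 109 to 468 array medians in the NP18 group and from 64.5 to 163 in the P18 group.

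**Figure D5:**
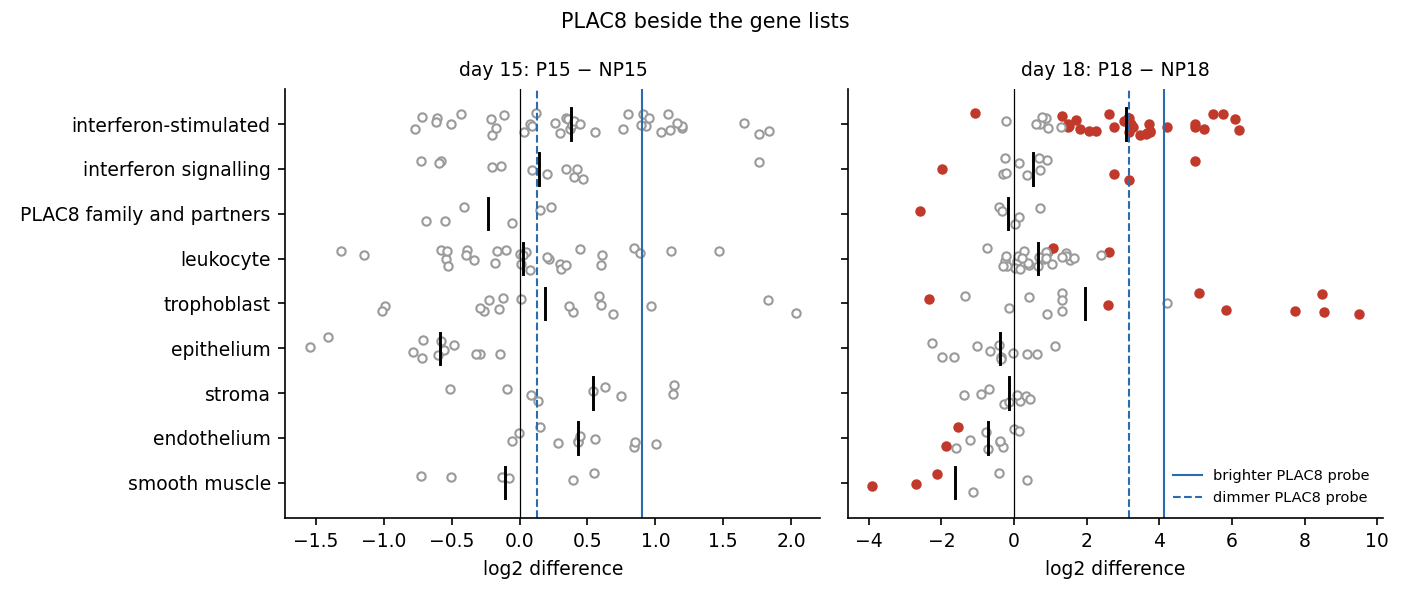
Differences between pregnant and non-pregnant cows on the log2 scale for the tested genes of each list, on day 15 (left) and day 18 (right), with different x ranges. Each point is 1 gene, filled red where called, short black bars are list medians, and the blue lines are the brighter (solid) and dimmer (dashed) PLAC8 probes, at 0.90 and 0.13 on day 15 and at 4.14 and 3.17 on day 18.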

How the data were processed

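The authors hybridized Cy3-labeled cRNA of 15 cows to a custom one-color Agilent array and read it with Feature Extraction 9.5. The deposited scanner tables hold a processed intensity per spot, background-corrected by the authors' software and not scaled between arrays. The deposited log2 table of the same arrays equalled the log2 intensity minus a constant within 0.0126 of log2 of the array's 75th percentile (column medians of -3.19 to -2.72), and it was used as an alternative.

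Spots with an outlier flag and control spots were left out, spots of a probe were averaged, and each intensity was divided by its array median before log2 was taken. Probes well above background in at least 3 arrays were tested (13161 of 15208). limma 3.58.1 in R 4.3.3 fitted 1 mean per group over 15 arrays. Python 3.11.15 served for the tables (pandas 2.3.3, numpy 2.4.6) and the figures (matplotlib 3.10.9). The procedure was tested on simulated data. Arrays of a group came from different cows and correlated at 0.945 to 0.989 over probes. The number of arrays limits the precision. Median intensities were 315 to 409 in the NP15, 546 to 684 in the P15, 789 to 838 in the NP18 and 407 to 564 in the P18 group, and 0 to 4 probes per array were saturated. The 9 slides and 6 scan days each held 1 group.

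Gene symbols came from the files and the RefSeq table of ARS-UCD2.0, with 7014 probes named (6700 distinct symbols), and the probe with the highest mean log2 signal stood for a gene. Lists of interferon-stimulated, interferon signaling, PLAC8 partner, leukocyte, trophoblast, epithelial, stromal, endothelial and smooth muscle genes were written from general knowledge. The PLAC8 probes and these lists were chosen with earlier results of these data known. Genes named were the 10 most and 5 least alike PLAC8, the measured partners, signaling genes and neighbors, fixed examples, and the highest and lowest member of the other lists on day 18. ITGB2, IFN-tau-c1, PTGS2, GZMB and S100A12 were named, and sums without the last 3 were made, after their values were seen. Some genes of the lists are counted but not reported singly here. A bound for a gene not well above background in a whole group is the ratio of the mean log2 signal of the higher group to that of the lowest signal well above background in each dim array.

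Alternatives were other scalings (75th percentile, quantile, normexp with an offset of 50, the log2 table), other filters, saturated spots as missing, weights per array, robust variances with a trend, fitting the compared groups alone, slide, scan day or replicate number as a block, the methods' t-test, the other PLAC8 probe, and leaving out each array. ABR9209 was an alternative chosen after seeing the data.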

Additional observations from a re-analysis of the deposited data

Results flagged for a closer look

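The difference between pregnant and non-pregnant cows was larger on day 18 than on day 15 by a test of the interaction in limma, and the values were 3.24 on the log2 scale for the brighter PLAC8 probe (adjusted p = 0.0127), 3.05 for the dimmer PLAC8 probe (adjusted p = 0.0186) and 3.49 for the overlapping probe ABR9209 (adjusted p = 0.00941). With a random block for the day of scanning, none of the 3 was called (adjusted p = 0.516 for each). No array of a group of 4 stood apart from the others of its group by Dixon's criterion with any of these probes.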

How the results depend on the processing

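The day 18 result of the brighter PLAC8 probe was called higher in 32 of 32 alternatives (3.17 to 4.33 on the log2 scale). The highest limma adjusted p was 0.0141, under a random block for the day of scanning. The day 15 result was called in 0 of 32 (0.13 to 1.20). Both counts include the dimmer probe and ABR9209 in place of the brighter probe, and the dimmer probe gave the lowest values, 3.17 and 0.13. When 1 array was left out, the brighter probe itself was from 3.86 to 4.33 on day 18 and from 0.55 to 1.20 on day 15. The scan day block is informed only by the 3 scan days of the NP15 group. Under it, the interaction of the brighter probe was 3.18 (adjusted p = 0.516) and its rise in pregnant cows was 3.89 (adjusted p = 0.0762), and neither was called. These were the only calls of the brighter probe that were lost. The day 15 difference of the dimmer probe was from -0.23 (without NP15 replicate 2) to 0.57 when 1 array was left out, so its direction turned, and its interaction lost the call without P15 replicate 1 (3.16, adjusted p = 0.0560). Under the scan day block the dimmer probe and ABR9209 lost the same calls as the brighter probe, with interactions of 3.12 and 3.47 (adjusted p = 0.516 each) and rises in pregnant cows of 3.41 and 3.94 (adjusted p of 0.0878 and 0.0762). With array weights its difference between days in non-pregnant cows was called (1.15, adjusted p = 0.0410). Of the interferon-stimulated genes, 22 (scan day) to 32 were called on day 18, and on day 15 the count was 3 with array weights, 2 with the methods' t-test without adjustment, and 0 to 1 when 1 array was left out (1 without NP15 replicate 3). Over all probes the number called on day 15 was 105 and ranged from 0 (scan day) to 1014 (array weights), on day 18 it was 759 and ranged from 49 (scan day) to 1419 (array weights), and for the interaction it was 358 and ranged from 0 to 1495 under the same settings. For the change between days it was 1570 (0 to 3080) in pregnant and 942 (54 to 1748) in non-pregnant cows, lowest with the scan day block and highest with no filter on dim probes. Leaving out 1 array gave 4 (without P15 replicate 1) to 345 (without NP15 replicate 3) calls on day 15, 428 (without P18 replicate 2) to 1045 (without NP18 replicate 1) on day 18, 59 (without P15 replicate 1) to 543 (without NP15 replicate 3) for the interaction, 736 (without P15 replicate 1) to 1728 in pregnant cows and 619 to 1568 (without NP18 replicate 1) in non-pregnant cows. Deviations of same-numbered arrays from their group means correlated at -0.26 to 0.30. With 3 or 4 arrays per group, these correlations cannot settle whether the numbers pair the cows. With the replicate block the differences were 0.79 on day 15 (adjusted p = 0.497) and 4.14 on day 18 (adjusted p = 0.000179), and no PLAC8 call changed. Where the counts changed, the cause was not tested.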
